A study of Mus musculus with 2 samples.

Results

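Mitochondrial ribosomal protein genes were examined in macrophages from infarcted mouse hearts, taken as the rows of the deposited table whose symbol begins with Mrpl or Mrps and a number. The rule chose 76 of 23284 genes, 47 with a large subunit symbol (Mrpl) and 29 with a small subunit symbol (Mrps). All 76 are annotated as protein-coding genes and lie on 17 chromosomes of the mouse genome (GRCm38, the same assembly as mm10). The series holds 2 RNA sequencing libraries from C57BL/6 mice whose left anterior descending coronary artery had been ligated, 1 of Ly6Chi macrophages and 1 of Ly6Clo macrophages, both collected from the infarcted heart on day 3. Ly6C is a surface antigen that is high on recently recruited monocyte-derived cells. The labels give no number of animals behind either library, so the difference between the libraries has no measured replicate error and no p-value is given.

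The value available for each gene is a signed statistic, a score without a stated unit by which the authors compared the libraries, together with a rank by its size. The table also has 2 columns of whole numbers, whose codes match no sample label, so scaled counts were not computed. Which population a positive or a negative statistic favours is likewise not stated, and values are described by their sign alone. The statistic carries no error of its own, and the depth behind each value was not analysed here. In libraries made from whole populations, fewer cells of a type and less RNA per cell cannot be told apart.

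Mitochondrial ribosomes translate the few messages of mitochondrial DNA, all of which encode core subunits of the respiratory chain and ATP synthase. Their RNAs come from mitochondrial DNA, while every protein of the large and the small subunit is encoded in the nucleus, made in the cytosol and imported. Some of these proteins have counterparts in bacterial ribosomes, and others are found only in mitochondria. Promoters of such nuclear genes are known for binding sites of ETS family factors, of NRF1 and of YY1, regulators of mitochondrial genes.

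Promoter sequences are shown for 4 members that lie near opposite ends of the statistic and hold these motifs, chosen after their values were seen. Each is the RefSeq window on GRCm38.p6 from 250 bases before to 50 after the gene's start, read 5′ to 3′ on the gene's strand, which is the plus strand for all 4. Capitals mark matches on either strand to CCGGAAG (ETS family), to the NRF1 palindrome with any base at its sixth place, or to AAGATGGCG (YY1). Mrps27 (statistic 0.231 in the authors' deposited table) and Mrps18a (-0.197) each hold 1 ETS and 1 YY1 match, Mrpl45 (0.197) holds 3 NRF1 matches and Mrpl52 (-0.186) holds 2 ETS matches.
Mrps27, chr13:99344536-99344835: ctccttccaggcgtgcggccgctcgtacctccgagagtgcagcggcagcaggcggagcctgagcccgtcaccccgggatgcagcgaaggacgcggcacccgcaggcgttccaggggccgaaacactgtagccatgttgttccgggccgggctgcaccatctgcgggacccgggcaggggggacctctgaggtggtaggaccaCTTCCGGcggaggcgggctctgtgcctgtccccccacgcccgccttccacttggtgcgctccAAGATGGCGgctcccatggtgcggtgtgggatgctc
Mrps18a, chr17:46110754-46111053: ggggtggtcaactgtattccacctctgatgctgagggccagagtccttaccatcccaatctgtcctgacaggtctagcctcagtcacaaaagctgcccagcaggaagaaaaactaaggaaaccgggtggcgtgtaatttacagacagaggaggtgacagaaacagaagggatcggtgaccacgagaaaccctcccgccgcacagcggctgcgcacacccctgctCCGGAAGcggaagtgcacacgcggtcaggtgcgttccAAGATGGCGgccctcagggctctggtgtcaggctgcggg
Mrpl45, chr11:97315466-97315765: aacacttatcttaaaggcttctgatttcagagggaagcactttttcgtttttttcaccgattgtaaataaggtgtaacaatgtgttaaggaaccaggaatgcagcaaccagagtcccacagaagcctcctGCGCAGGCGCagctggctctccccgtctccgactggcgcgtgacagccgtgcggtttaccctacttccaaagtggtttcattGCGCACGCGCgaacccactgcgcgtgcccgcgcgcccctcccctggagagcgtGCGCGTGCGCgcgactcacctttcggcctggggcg
Mrpl52, chr14:54426659-54426958: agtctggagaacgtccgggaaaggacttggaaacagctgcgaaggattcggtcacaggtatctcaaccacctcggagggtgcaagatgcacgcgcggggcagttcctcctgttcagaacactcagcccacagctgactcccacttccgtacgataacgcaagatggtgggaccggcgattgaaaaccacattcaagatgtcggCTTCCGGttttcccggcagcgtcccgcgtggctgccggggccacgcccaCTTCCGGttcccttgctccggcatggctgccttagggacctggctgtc

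Mitochondrial ribosomal protein genes had small statistics, with more of them negative than positive. In the authors' deposited table, 28 members were positive and 48 negative, and none was at 0. Positive members thus made up 36.8%, beside 57.7% of the 16302 genes of the table with a value other than 0. The members' median, computed from the authors' deposited table, was -0.035, with quartiles at -0.106 and 0.068, beside a median of 0.005 over all genes with a value other than 0, whose quartiles were -0.083 and 0.136. The 95% order-statistic interval of the members' median ran from -0.063 to -0.002. It treats genes as independent draws, and genes of 1 pair of libraries are neither independent nor replicates. A size of at least 0.2 was reached by 4 of 76 members, 5.26%, beside 19.6% of all genes in the authors' deposited table and 28% of those with a value other than 0. Of these 4, 3 were positive, beside 12.6% of all genes, and 1 was negative, beside 7.03%. At a size of at least 0.1 stood 10 positive members, beside 21.3% of all genes, and 21 negative members, beside 15.6%. Members at or past 0.1 thus made up 40.8%, beside 36.9% of all genes and 52.7% of those with a value other than 0. No member reached 0.5 in size, beside 4.76% of all genes, 3.77% on the positive and 0.988% on the negative side. The 76 values ran from -0.231 to 0.231 in the authors' deposited table, so that every member lay in a narrow range beside the extremes of the table, -1.89 and 2.84.

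**Figure D1:**
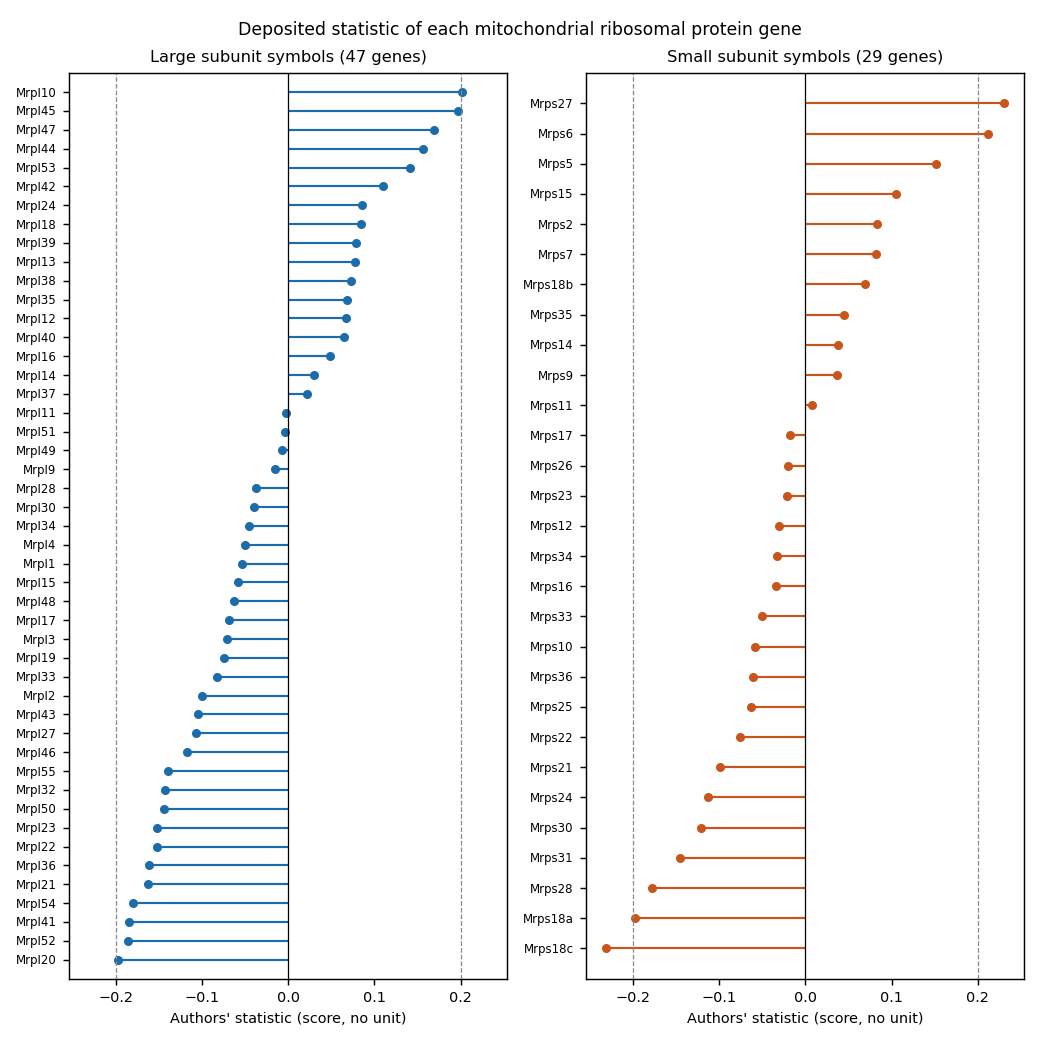
Each point is the authors' deposited statistic (x axis, a score without unit) of 1 gene (y axis), with large subunit symbols on the left and small subunit symbols on the right. Dashed lines mark a size of 0.2, which 1 of 47 large and 3 of 29 small subunit genes pass, beside 19.6% of all genes. Below 0 lie 30 large and 18 small subunit genes, beside 42.3% of all genes with a value other than 0.

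The values of the large and the small subunit overlapped over nearly their whole range. In the authors' deposited table, 17 large subunit genes were positive and 30 negative, and 11 small subunit genes were positive and 18 negative. The large subunit median, computed from the authors' deposited table, was -0.045 (95% order-statistic interval -0.075 to 0.022) and the small subunit median was -0.030 (-0.064 to 0.038). The difference of medians, large minus small, was -0.015, and each median lay inside the interval of the other. Large subunit genes ran from -0.198 to 0.202 and small subunit genes from -0.231 to 0.231 in the authors' deposited table. Symbols do not always follow the particle, because the proteins of Mrps30 and Mrps18a are known to sit in the large subunit and Mrps36 is now counted with the oxoglutarate dehydrogenase complex. With these 3 genes placed by structure, the medians were -0.050 for 49 large subunit genes and -0.021 for 26 small subunit genes, a difference of -0.029. Mrps30 had -0.121, Mrps18a -0.197 and Mrps36 -0.061 in the authors' deposited table, so all 3 lay on the negative side.

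Within the large subunit, genes of the stalk that recruits translation factors, of its base, and of the separate L1 stalk did not share a sign. Mrpl10, whose protein forms the base of the stalk, had the highest large subunit value, 0.202 with rank 4496 in the authors' deposited table, and lies on chromosome 11 from 97041560 to 97049213. Mrpl12, whose protein is carried by Mrpl10 in the stalk and is also known to bind the mitochondrial RNA polymerase, had 0.067 in the authors' deposited table. Mrpl1 and Mrpl11, which belong to the L1 stalk and to the base of the factor-binding region, had -0.053 and -0.002 in the authors' deposited table. Genes of the factor-recruiting stalk and its base thus ran from the top of the subunit to just below 0, with Mrpl1 of the L1 stalk lower.

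Genes of the exit tunnel, where new mitochondrial proteins leave for the inner membrane, stood at both ends. Mrpl45, whose protein ties the ribosome to the membrane, had 0.197, and Mrpl47, the counterpart of bacterial L29 at the tunnel's rim, had 0.169 in the authors' deposited table. Mrpl44, an RNase III-like protein linked to human infantile cardiomyopathy, had 0.157 in the authors' deposited table. By contrast, Mrpl22 and Mrpl23, which line the tunnel and its exit, had values of -0.152 each, and Mrpl24 had 0.085 in the authors' deposited table. Of these 6 genes, 4 were positive and 2 negative, and Mrpl24 was the nearest to 0.

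The 6 lowest large subunit genes had coding sequences of 306 to 648 bases, beside a large subunit median of 576, and came from both bacterial-type and mitochondria-specific proteins. Mrpl20, the counterpart of a bacterial protein needed to assemble the large subunit, was lowest at -0.198 and rank 4615 in the authors' deposited table, and lies on chromosome 4 from 155802878 to 155809975. It was followed by the mitochondria-specific genes Mrpl52 at -0.186, Mrpl41 at -0.184 and Mrpl54 at -0.180 in the authors' deposited table. Values of -0.163 for Mrpl21 and -0.162 for Mrpl36, both with bacterial counterparts, came next in the authors' deposited table. The remaining leaders on the positive side were the mitochondria-specific genes Mrpl53 at 0.141 and Mrpl42 at 0.110 in the authors' deposited table.

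Within the small subunit, Mrps27, an RNA-binding protein of the pentatricopeptide repeat family, was highest at 0.231 with rank 3764 in the authors' deposited table. The gene spans positions 99344786 to 99415562 of chromosome 13. Mrps6, the counterpart of bacterial S6, followed at 0.212 in the authors' deposited table. Its annotated exons share bases with Slc5a3, a transporter gene on the same strand with a statistic of 0.380 in the authors' deposited table, and whether reads were divided between these genes was not tested. Mrps5, at the entrance of the messenger channel, had 0.151, while Mrps24, the counterpart of bacterial S3 at the same entrance, had -0.113 in the authors' deposited table. Mrps12, whose bacterial counterpart S12 lies in the decoding centre, stood close to 0 at -0.030 in the authors' deposited table. In the authors' deposited table, Mrps15 at 0.105, Mrps2 at 0.083 and Mrps7 at 0.082, all with bacterial counterparts, completed the upper end.

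The lowest small subunit gene was Mrps18c, at -0.231 and rank 3759 in the authors' deposited table, which lies on chromosome 5 from 100798627 to 100804471. It is 1 of 3 paralogs related to bacterial S18, whose proteins occupy different places on the ribosome and do not replace each other there. Mrps18a had -0.197 and Mrps18b had 0.069 in the authors' deposited table, so the paralogs stood at the bottom, near the bottom and above 0. Mrps28, the counterpart of bacterial S1, had -0.178, and the mitochondria-specific Mrps31 had -0.146 in the authors' deposited table. Mrps27 and Mrps18c were of nearly the same size on opposite sides, and Mrps18c was the only member at or below -0.2. Annotated exons of Mrps18c share bases with Gm43511 on the same strand, and whether reads were divided between these genes was not tested.

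Members with and without a bacterial counterpart had like values. The 46 genes with a counterpart divided into 17 positive and 29 negative values, and their median was -0.039 computed from the authors' deposited table. The 29 mitochondria-specific genes divided into 11 and 18, with a median of -0.022. Here Mrps18a and Mrps18b were counted as mitochondria-specific, since their places on the ribosome have no bacterial counterpart, and Mrps36 was left out. In the large subunit by structure, 9 of 30 genes with a counterpart and 8 of 19 mitochondria-specific genes were positive. In the small subunit, 8 of 16 genes with a counterpart and 3 of 10 mitochondria-specific genes were positive in the authors' deposited table.

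Most of the 7 mitoribosomal genes that carry other symbols were negative. The count was 6 of 7 in the authors' deposited table, beside 42.3% of all genes with a value other than 0, with a median of -0.038. Aurkaip1, a small subunit protein of mitochondria, was lowest at -0.179, and Gadd45gip1, of the large subunit near the exit tunnel, had -0.101 in the authors' deposited table. Chchd1, of the small subunit, had -0.063, Dap3, a GTP-binding protein first described in cell death, had -0.021, and Mrpl57, listed as Mrp63, had -0.021 in the authors' deposited table. Mrpl58, listed as Ict1, which frees stalled mitochondrial ribosomes, had -0.038, and Ptcd3, a pentatricopeptide repeat protein, had 0.028 in the authors' deposited table.

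Translation factors and tRNA-charging genes were mostly positive, as were 57.7% of all genes with a value other than 0. The ribosomal proteins of the cytosol also lay mostly on the positive side. Of 10 translation factors in the table, 8 had a positive and 2 a negative value, and the median was 0.052, computed from the authors' deposited table. They ran from Mtif3, an initiation factor, at -0.102 to Mtfmt, which formylates the initiator tRNA, at 0.186 in the authors' deposited table. Of 20 genes that charge mitochondrial tRNAs, 14 had a positive and 6 a negative value, and the median was 0.072. Positive genes thus made up 80% of the factors and 70% of the tRNA-charging genes, beside the 57.7% over all genes. Fars2, the phenylalanyl-tRNA synthetase, was lowest at -0.078 in the authors' deposited table. All 6 genes of mitochondrial transcription were positive, from Tfb2m at 0.028 to Tefm, the elongation factor, at 0.181 in the authors' deposited table, with a median of 0.126. This list holds Mterf1a and Mterf1b, close copies between which reads could be split.

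Genes that assemble the mitochondrial ribosome had a median between that of the 76 members, -0.035, and that of all genes with a value other than 0, 0.005. Of 25 such genes, 11 had a positive and 14 a negative value, and the median was -0.013, computed from the authors' deposited table. Positive genes were 44% of them, beside 57.7% of all genes with a value other than 0. The GTPase gene Noa1 was highest at 0.186 and the RNA maturation gene Ybey lowest at -0.215 in the authors' deposited table. Of the inner membrane genes, Oxa1l, the insertase that receives new mitochondrial proteins, had 0.225 and Letm1 had -0.103 in the authors' deposited table. Of 9 upstream regulators, 5 were positive and 4 negative, so 55.6% were positive, near the 57.7% over all genes. Ppargc1b, a coactivator of mitochondrial genes, was highest at 0.621 and Esrra, a nuclear receptor of oxidative metabolism, lowest at -0.086 in the authors' deposited table. Myc, a driver of ribosome production, had 0.565, while Nrf1, Gabpa and Yy1, whose motifs were searched, had 0.021, -0.039 and -0.057 in the authors' deposited table.

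Of 101 rows with a cytosolic ribosomal symbol, 79 were positive, 18 negative and 4 at 0 in the authors' deposited table, with a median of 0.095. Without S6 kinases, a binding protein, a ribosome biogenesis gene and pseudogenes, 71 of 84 had a positive and 11 a negative value, and the median was 0.107. Of those with a value other than 0, 86.6% were positive, beside 57.7% of all genes. The mitochondrial and the cytosolic medians thus lay on opposite sides of 0, at -0.035 and 0.107. The 95% order-statistic intervals were -0.063 to -0.002 for the mitochondrial and 0.086 to 0.125 for the cytosolic genes. Both treat genes as independent draws, so their separation is not a test. The quartiles, -0.106 and 0.068 for the mitochondrial and 0.043 and 0.160 for the cytosolic genes, overlapped. The comparison is of genes within 1 pair of libraries and carries no replicate error. Cytosolic genes ran from Rps27 at -0.192 to Rps4x at 0.290 in the authors' deposited table, so single genes of both ribosomes overlapped widely.

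**Figure D2:**
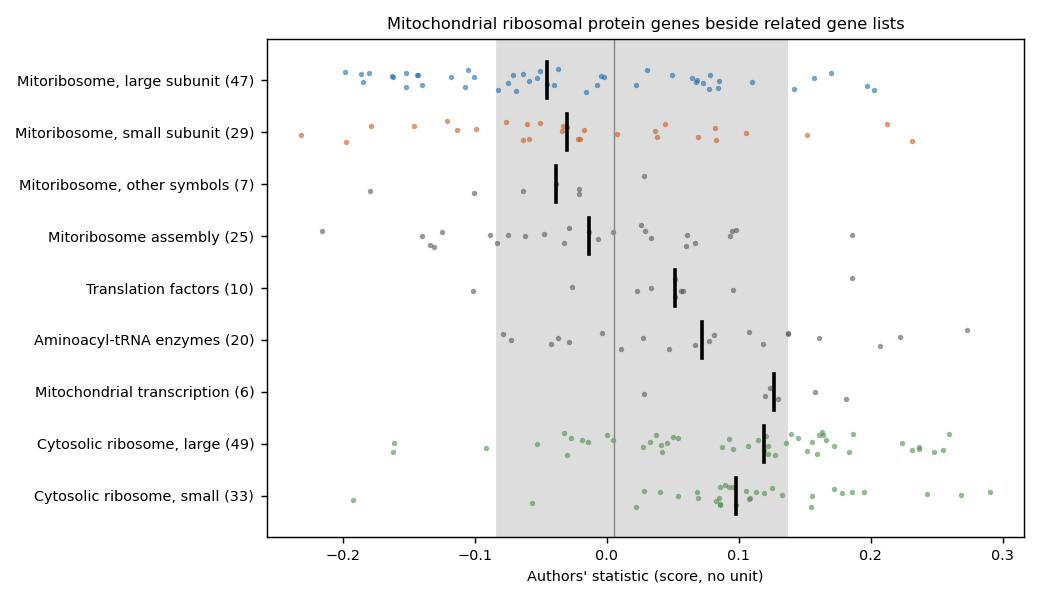
Points are the authors' deposited statistics (x axis, score without unit) of single genes in each list (y axis, number of genes with a value other than 0), and black bars are medians. The grey band spans the quartiles of all genes with a value other than 0, from -0.083 to 0.136, and both mitoribosomal medians lie below the line at the median of all genes while both cytosolic medians lie above it.

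Members at the positive end had longer coding sequences than members at the negative end. The 7 members at or above 0.15 in the authors' deposited table had a median coding length of 918 bases, from 375 to 1296. The 11 members at or below -0.15 had a median of 438 bases, from 306 to 648. Among the 26 members with the shortest coding length, 195 to 480 bases, 5 had a positive and 21 a negative value, and the median was -0.071, computed from the authors' deposited table. Among the 25 longest, 762 to 1326 bases, 13 had a positive and 12 a negative value, and the median was 0.022. The highest of the 5 short positive members were Mrps6 (375 bases) at 0.212, Mrpl53 (354 bases) at 0.141 and Mrpl42 (426 bases) at 0.110 in the authors' deposited table. The 25 members in between had 10 positive and 15 negative values. Across the 76 genes, Spearman's rank correlation with coding length was 0.289 and Pearson's r with its log2 was 0.313, given as a description because genes are not independent and all share the same libraries. The rank correlation was 0.350 over 47 large and 0.250 over 29 small subunit genes, 0.229 over 80 cytosolic ribosomal genes and 0.059 over 13678 protein-coding genes with a value other than 0. With the whole spliced length in place of the coding length, the rank correlation over the 76 members was 0.316, but the median did not rise throughout. By spliced length, the 26 shortest members had a median of -0.103 (5 positive, 21 negative), the middle 25 a median of 0.007 (13 and 12) and the 25 longest a median of -0.017 (10 and 15), computed from the authors' deposited table. Expression level was not analysed here, and its part in this pattern was not tested.

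**Figure D3:**
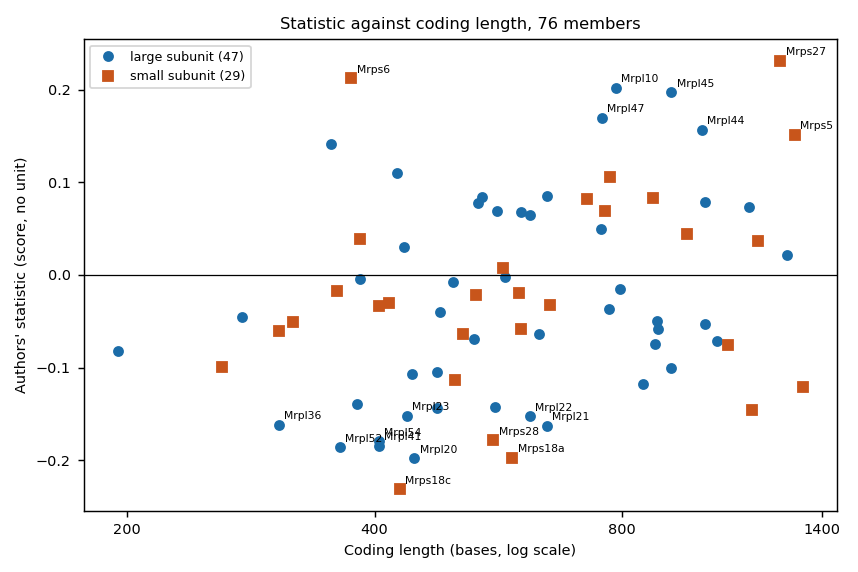
The authors' deposited statistic (y axis, score without unit) of each of the 76 members is plotted against its coding length in bases (x axis, log scale), with circles for the large and squares for the small subunit. Labels name members of size 0.15 or more, and 21 of the 26 shortest members lie below 0 while the longest divide evenly.

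Promoter windows of mitochondrial ribosomal protein genes held the motifs of mitochondrial regulators in a larger share than the promoters of all protein-coding genes. A window was given for 67 of 76 members, 41 of the large and 26 of the small subunit. The ETS motif CCGGAAG was found in 24 of 67 members, 35.8%, beside 12.9% of 17492 protein-coding genes searched in the same way. The NRF1 motif was found in 12 members, 17.9%, beside 7.17%, and the YY1 motif AAGATGGCG in 8 members, 11.9%, beside 2.14%. The E-box CACGTG, a site of Myc among other factors, was found in 5 members, 7.46%, beside 8.91%. The 17492 genes include genes at 0 or without a value, while no member was at 0. Among protein-coding genes with a value other than 0, 1841 held the ETS motif and 8934 did not. The counts were 1057 and 9718 for NRF1, and 318 and 10457 for YY1. These shares were higher than over the 17492 genes, though below the members' shares. At least 1 of the first 3 motifs was in 39 members and 2 or more in 5. Both strands were searched, and no motif contains another. A match is a description of letters, not of binding.

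**Figure D4:**
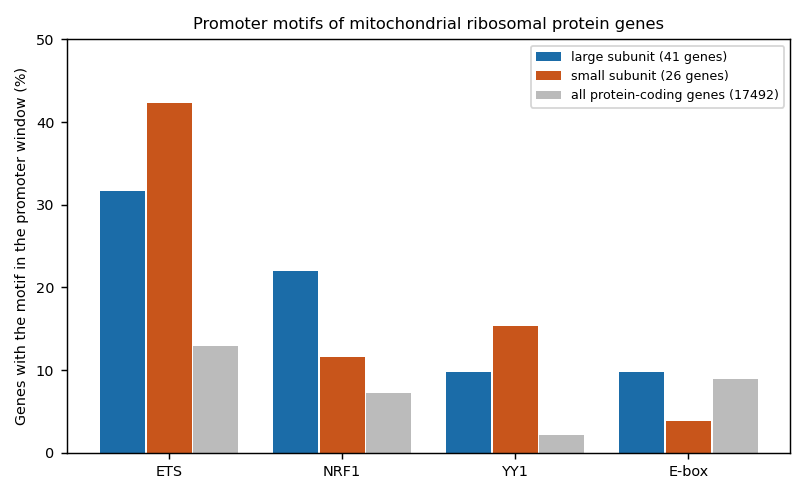
Bars give the percent of genes (y axis) whose promoter window holds each motif (x axis) in the large subunit, the small subunit and all protein-coding genes. ETS matches were in 31.7% of large and 42.3% of small subunit genes, beside 12.9% of all, and YY1 matches in 9.76% and 15.4%, beside 2.14%.

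Members with an ETS match were mostly negative. In the authors' deposited table, 4 of 24 were positive, with a median of -0.066, beside 21 of 43 members without a match, with a median of -0.002. Over protein-coding genes with a value other than 0, 47.2% of 1841 genes with a match and 59.0% of 8934 without were positive, so the shift had the same direction at large. The median coding length was 502.5 bases in members with and 603 in members without an ETS match, and the part of length in the difference was not tested. Members with an NRF1 match were positive in 6 of 12 cases, beside 19 of 55 without it, in the authors' deposited table. Over protein-coding genes the order was the opposite, with 529 of 1057 positive beside 5613 of 9718. Of 8 members with a YY1 match 62.5% were positive, beside 33.9% of 59 without it, in the authors' deposited table. Over protein-coding genes this order too was the opposite, at 41.5% of 318 beside 57.5% of 10457. Of 5 members with an E-box 1 was positive, with a median of -0.162, beside 24 of 62 without it, with a median of -0.026, computed from the authors' deposited table. With 12, 8 and 5 members these shares rest on few genes. Each match counts for the member whose window holds it. The YY1 match of Mrps11 lies within the span of Mrpl46, which was counted as without it.

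Stretches of 29 bases around the YY1 motif are shown for 7 of the 8 members that hold it, because the motif runs over the start of translation in several of them. They are read 5′ to 3′ on the strand where the motif, in capitals, reads AAGATGGCG. In the eighth, Mrps24, the motif lies too near the window's end.
Mrps27: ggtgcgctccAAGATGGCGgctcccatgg
Mrps18a: ggtgcgttccAAGATGGCGgccctcaggg
Mrpl35: ggcaggctgcAAGATGGCGgcttccatct
Mrpl37: tgcacgggcaAAGATGGCGgcgtccaggt
Mrpl42: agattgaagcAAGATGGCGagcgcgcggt
Mrps11: ggaagacagaAAGATGGCGgcgcccgtag
Mrpl36: gccaggaagaAAGATGGCGtaaggtcacg

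In Mrps27, Mrps18a and Mrpl35, the ATG inside the motif is an annotated start codon. In 5 of the 7 the motif reads with the gene. There it begins 12 to 28 bases into the gene in the RefSeq window, with the start as base 1. In Mrps11 and Mrpl36 it lies on the other strand upstream. The Mrps11 window lies wholly within the annotated span of Mrpl46 on the opposite strand, so this match reads in the direction of Mrpl46. Mrpl46, at -0.118, held no match in its own window and counts as without the motif. Whether this match marks the start of translation of Mrpl46 was not tested. Mrps27 and Mrps18a, both with the motif at the start codon and an ETS match before it, had 0.231 and -0.197 in the authors' deposited table, at the top and near the bottom of all members. Mrpl42 had 0.110, Mrpl35 0.069, Mrpl37 0.022, Mrps11 0.007 and Mrpl36 -0.162 in the authors' deposited table. Members that share this element therefore covered the range of the statistic.

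Other cell types and cell division could not be separated from these values. All 10 macrophage markers were in the table, 9 of them negative, with a median of -0.236 computed from the authors' deposited table. All 8 dendritic cell, 7 fibroblast, 8 cardiomyocyte and 9 proliferation markers were positive, in ranges of 0.237 to 2.84, 0.871 to 2.14, 2.42e-06 to 0.529 and 0.173 to 1.63. Of 5 endothelial markers 2 were positive and 3 negative, and of 6 neutrophil markers 4 were positive, 1 was negative and 1 was at 0 in the authors' deposited table. Myh7 of the cardiomyocyte and Ngp of the neutrophil markers count as positive at 2.42e-06, a value next to 0 shared at rank 15882. Genes at this value also count in the 57.7% of genes that were positive and raise that share. No member had this value, and the share without such genes was not computed. Summed levels of these markers were not analysed here, and their part in the members' values was not tested. Annotated exons of 25 members share bases with another gene, on the opposite strand for 21 of them. Strand handling is not given in the sources used here, so reads of such pairs could not be told apart, among them Mrps27, Mrpl10, Mrpl47, Mrpl21 and Mrpl36. On the same strand, 5 members share bases with another gene, among them Mrps18c, Mrps6 and Mrpl53.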

How the data were processed

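RNA of 1 Ly6Chi and 1 Ly6Clo macrophage library was sequenced. The submitters' processing notes name CASAVA 1.8.2, TopHat and build mm10; the counter and strand handling are not stated there. Per the file headers, the authors deposited a signed statistic per gene, a score without stated unit, and its rank. Recomputed ranks matched for 23284 of 23284 genes. The 2 columns of whole numbers match no sample label and were not used, so no depth, count ratio or test was computed.

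From the score, medians, quartiles, 95% order-statistic intervals and counts past 0.2 were computed with Python 3.11.15, NumPy 2.4.6, pandas 2.3.3 and SciPy 1.17.1, and drawn with Matplotlib 3.10.9. Older symbols were matched through RefSeq synonyms. Gene positions, and the length of 1 principal transcript a gene, came from GENCODE M21 (GRCm38), promoter windows from RefSeq (GRCm38.p6). In 63 of 73 member windows, the 25 bases from the start lie in a GENCODE transcript of the gene, on the same strand. The motif search was tested on planted motifs, and the coverage of the median interval on independent draws of the deposited values. A planted shift of genes was also recovered, which its construction ensured. The length, overlap, start codon and neighbour computations were not tested in this way.

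Members and lists were chosen with earlier results of these data known. Named members were the 6 highest and 6 lowest in each subunit and 5 preset genes; Mrpl1, Mrpl11, Mrpl22, Mrpl23 and Mrpl24 come from preset structural groups. In each pathway list the highest and lowest were named. Slc5a3, Mrps18b, Mrpl46, Myc, Nrf1, Gabpa, Yy1, Myh7, Ngp and the YY1 motif holders were named after their values were seen. Alternatives were the mean, subunits by structure, a size minimum, other thresholds and, chosen after seeing the data, leaving out overlapping genes.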

Additional observations from a re-analysis of the deposited data

How the results depend on the processing

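No paired analysis was possible because there is a single library of either population, and for the same reason none could be left out. Of 9 medians recomputed over other choices of members or subunits, 6 stayed inside the order-statistic interval of the median reported, as did 3 of 3 means. The large minus small difference was negative with means, with subunits by structure, with sizes of 0.1 or more and without shared exons, from -0.029 to -0.0092. These choices reuse most of the same values, so a shared sign says little. Limits from both medians' intervals put the reported difference of -0.015 between -0.113 and 0.086, a range that includes 0. The 3 medians outside came from keeping only members of size 0.1 or more, which by construction drops values near 0: the medians were then -0.121 for all members, -0.140 for the large and -0.117 for the small subunit. Lowering the threshold from 0.2 to 0.1 gave 10 positive members, 13.2% beside 21.3% of all genes, and 21 negative members, 27.6% beside 15.6%. Of the large subunit these were 6 and 15, and of the small subunit 4 and 6. Raising the threshold to 0.5 gave 0 in each, beside 4.76% of all genes. Without the 25 members that share exons with other genes, an alternative chosen after seeing the data, the median over 51 members was -0.045. Including members at 0 or keeping only annotated protein-coding members left out and added no gene. Changes of pseudocount, scaling and count filter were not run, as columns tied to a sample would be required.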

Other observations

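Some mitochondrial ribosomal protein genes start head to head with another gene, and the pairs named here were chosen after their values were seen. A protein-coding gene on the opposite strand starts within 1000 bases upstream of 17 members in GENCODE M21. Starts were taken at the outermost annotated end of each gene, so pairs whose spans overlap there were not counted. Mrpl46, at -0.118, and Mrps11, at 0.007, on opposite strands, are such a pair. Of the 16 neighbours with a value other than 0 in the authors' deposited table, 8 were positive, beside 57.7% of all such genes. The sign was that of the member for 9 neighbours. The neighbours ran from -0.248 to 1.40 with a median of 0.025, a wider range than the members'. Mrpl51, at -0.004, faces Ncapd2, a condensin subunit gene used in mitosis, at 1.40 in the authors' deposited table, with 100 bases between their starts. Mrps12, at -0.030, faces Sars2, the mitochondrial seryl-tRNA synthetase gene, at 0.118, and Mrps27, at 0.231, faces Ptcd2 at 0.188 in the authors' deposited table. Mrpl32, at -0.143, faces the proteasome gene Psma2 at -0.248 in the authors' deposited table.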
